A study of Cricetiscus sungorus with 12 samples.

Results

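The 43 genes described here encode the subunits of the proteasome, its activators, 2 of its regulators and 3 chaperones of cap assembly. All were measured in the hypothalamus of the Djungarian hamster. They were chosen by their mouse GeneIDs among the 17191 GeneIDs to which the hamster transcripts had been assigned, and no gene was selected on its own measured value or by a threshold. The family as a whole was proposed with the counts and fold changes of these samples in view, so the counts of its members below are descriptions beside the share over all GeneIDs. The deposited files carry GeneIDs and no gene names, and the symbols used here are those that the list of members gives for each GeneID. The genes were taken in 4 sets. The core holds 14 genes, Psma1 to Psma7 and Psmb1 to Psmb7, and the regulatory cap set holds 20 genes, Psmc1 to Psmc6 and Psmd1 to Psmd14. In the cap set, Psmd5, Psmd9 and Psmd10 encode the chaperones of cap assembly. The immunoproteasome set holds 5 genes, Psmb8 to Psmb10, Psme1 and Psme2. The other 4 genes are Psme3, Psme4, Psmf1 and Psmg1.

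The proteasome is the protease that breaks down proteins tagged with ubiquitin. Its core is a barrel of alpha rings around beta rings, with the catalytic sites on beta subunits that face the inside. The cap on the end of the barrel binds the tagged protein, removes the ubiquitin and unfolds the chain with a ring of ATPases. In cells exposed to interferon, and constitutively in many immune cells, the catalytic beta subunits are exchanged for those of the immunoproteasome, whose products feed antigen presentation by MHC class I.

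Hypothalamic polyA RNA of 12 adult hamsters from an indoor colony was sequenced, 1 library per hamster. The 4 LP-NT hamsters stayed in long photoperiod with 16 h of light and 8 h of dark and were normothermic. The 4 SP-NT and 4 SP-HT hamsters were acclimated to short photoperiod with 8 h of light, and were sampled while normothermic without torpor on that day (SP-NT) or hypothermic in spontaneous daily torpor (SP-HT). All were sampled at about ZT 4, 4 h after lights on, and only the hamsters in short photoperiod carried temperature transmitters. By the labels, LP-NT and SP-NT each held 2 males and 2 females, while SP-HT held 3 males and 1 female.

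The libraries summed to between 20204979 and 24186918 expected counts. LP-NT replicate 01 stood apart from the other libraries: it was the highest of the 12 for 23% of the 16380 GeneIDs and the lowest for 21.4%. In SP-NT replicate 19, labelled male, 2 GeneIDs were at 0 that had at least 300 counts in the other 6 males and at most 5 in the females. A record was matched to Rbm3-ps, a relative of a cold-inducible gene, by the size and adjusted p of its change between SP-HT and SP-NT. A difference between those 2 groups was thus set by the choice, and its direction was not. The record had 2.51 to 4.03 CPM (counts scaled to library size with TMM factors) in the samples labelled SP-HT. That was under the 13.3 to 16.6 CPM in those labelled SP-NT and the 9.0 to 17.5 CPM in LP-NT. Each direction below therefore holds for the samples as labelled, and whether the 2 labels are exchanged was not tested. In bulk tissue, fewer cells of a type and less RNA per cell cannot be told apart.

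In TPM, the transcript level corrected for length and depth, the core genes were the most abundant and the immunoproteasome genes the least. The median of the 12-hamster means was 183 TPM over the core genes, 115 TPM over the cap genes and 14.7 TPM over the immunoproteasome genes, beside 18.5 TPM over all GeneIDs. The highest means were those of Psma7 (GeneID 26444), an alpha subunit, with 319 TPM, of Psmb6 (GeneID 19175), the constitutive beta1 subunit with caspase-like activity, with 317 TPM, and of Psmc1 (GeneID 19179), an ATPase of the cap, with 307 TPM. Psmb5 (GeneID 19173), the constitutive beta5 subunit with chymotrypsin-like activity, had a mean of 289 TPM. Psma7 spanned 288 to 391.7 TPM over the 12 hamsters and Psmc1 spanned 289 to 337 TPM, so the order among the most abundant subunits did not exceed their spread. All 20 cap genes had means between 53.6 TPM (Psmd10, gankyrin, a chaperone of cap assembly) and Psmc1.

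**Figure D1:**
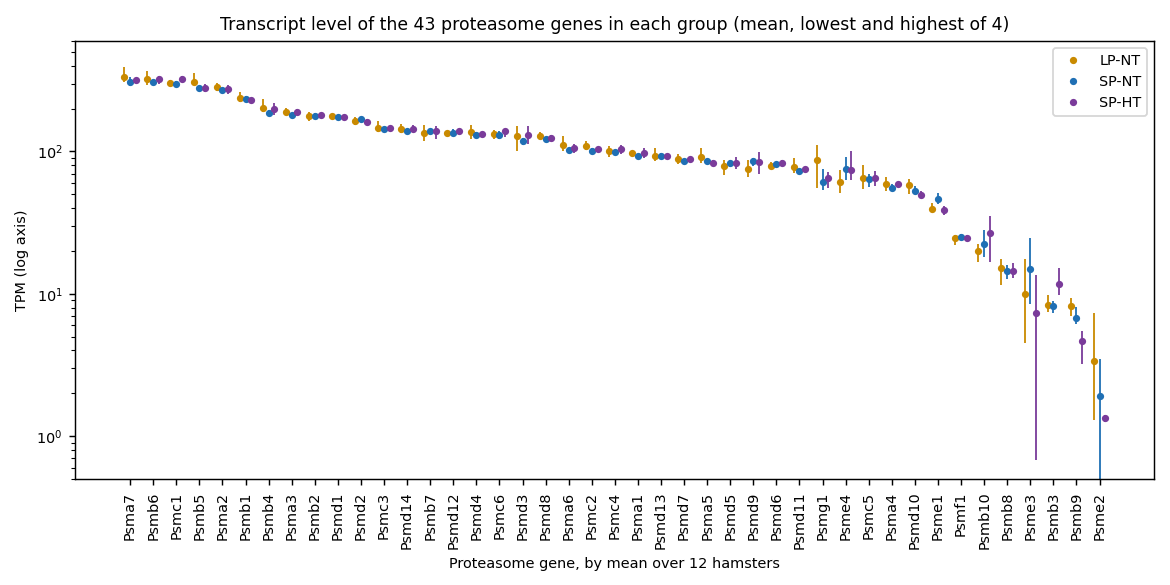
TPM (log axis) of the 43 proteasome genes, ordered by the mean over 12 hamsters; points are the means of 4 hamsters in each group and lines run from the lowest to the highest hamster, with Psme2 in 1 SP-NT hamster at 0 and its line ending at the axis floor of 0.5 TPM. The immunoproteasome genes, Psme3, Psmf1 and Psmb3 lie at the low end, and Psmb3 is the exception among the core genes.

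Psmb3 (GeneID 26446), the non-catalytic beta3 subunit, lay far below the rest of the core. Its mean was 9.41 TPM, rank 41 of 43, although an assembled core holds each beta subunit in equal number. It rested on 98 to 215 expected counts per hamster and 3 assembled transcripts, while the core gene with the next lowest counts, Psmb2, had 929 to 1185. The level given for Psmb3 is that of the transcripts assigned to its GeneID, and how much of its mRNA those hold was not tested.

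Each inducible catalytic subunit was present at a small share of its constitutive counterpart. Psmb9 (GeneID 16912), the beta1i subunit, had 2.22% ± 0.277 (SD, n = 4) of the TPM of Psmb6 in SP-NT. Psmb8 (GeneID 16913), beta5i, had 5.18% ± 0.672 (SD, n = 4) of that of Psmb5. Psmb10 (GeneID 19171), beta2i, had 16.3% ± 3.83 (SD, n = 4) of that of Psmb7, the beta2 subunit with trypsin-like activity. Of the activator PA28, Psme1 (the alpha subunit) had a mean of 41.3 TPM over 12 hamsters. Psme2 (the beta subunit) had 0 to 3 expected counts per hamster. Those came from 3 assembled transcripts with a mean effective length (the length open to fragments) of 110 bases. How much of the Psme2 mRNA those transcripts hold was not tested. At this depth a count of 0 allows up to 3 counts, so no fold change is given for Psme2.

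Photoperiod was compared by SP-NT against LP-NT, the normothermic hamsters, a comparison meant to isolate seasonal acclimation. No proteasome gene passed the test in either direction, in edgeR, DESeq2 or limma voom, which called 0.0370%, 0.204% and 0.0432% of the 16199 GeneIDs tested. All 14 core genes and 17 of 20 cap genes had a log2(FC) below 0, with medians of -0.11 and -0.07, beside a median of -0.00 over all GeneIDs. The lower values in SP-NT rested on LP-NT replicate 01. Without that hamster the medians were -0.02 over the core genes and -0.01 over the cap genes.

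All 43 genes passed the filter of 10 counts over the 8 samples, Psme2 on 0 to 3 counts a hamster. Groups were compared in edgeR (quasi-likelihood), with p-values adjusted over all GeneIDs after Benjamini and Hochberg (padj). The smallest padj of a proteasome gene was 0.913 (edgeR), and no proteasome gene had an unadjusted p under 0.05, against 2.52% of GeneIDs higher and 2.32% lower at that level. Of the 42 genes other than Psme2, 35 had a log2(FC) below 0, beside 50.8% of all GeneIDs, and 23 without LP-NT replicate 01, beside 50.5%.

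Psmb5 is an example. It had 118, 89.5, 89.8 and 87.8 CPM in LP-NT, with replicate 01 first, and 87.8, 82.4, 87.4 and 81.7 CPM in SP-NT. Its log2(FC) was -0.18 (95% interval -0.39 to 0.02, edgeR padj = 0.913) with all hamsters. Leaving out 1 hamster at a time moved it between -0.22 and -0.07.

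The same hamster was the highest in LP-NT for the other constitutive catalytic subunits. Psmb6 had 81.0, 67.7, 60.3 and 60.6 CPM in LP-NT and 62.1, 62.4, 62.5 and 60.8 CPM in SP-NT, with a log2(FC) of -0.12 (interval -0.32 to 0.08). Psmb7 had 122, 104, 88.3 and 95.4 CPM in LP-NT and 104, 101, 100.4 and 97.5 CPM in SP-NT, with a log2(FC) of -0.03 (interval -0.23 to 0.17). For both, the SP-NT hamsters lay within the span of the LP-NT hamsters.

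Psma5, an alpha subunit, had 62.0 CPM in LP-NT replicate 01 and between 44.5 and 49.4 CPM in the other 7 hamsters of the comparison. LP-NT replicate 01 was the highest of all 12 hamsters for 29 of the 43 genes, among them 12 of 14 core genes and 15 of 20 cap genes. The heatmap by hamster shows that library as a column of its own. Whether its other differences from the rest have a part in this was not tested.

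**Figure D2:**
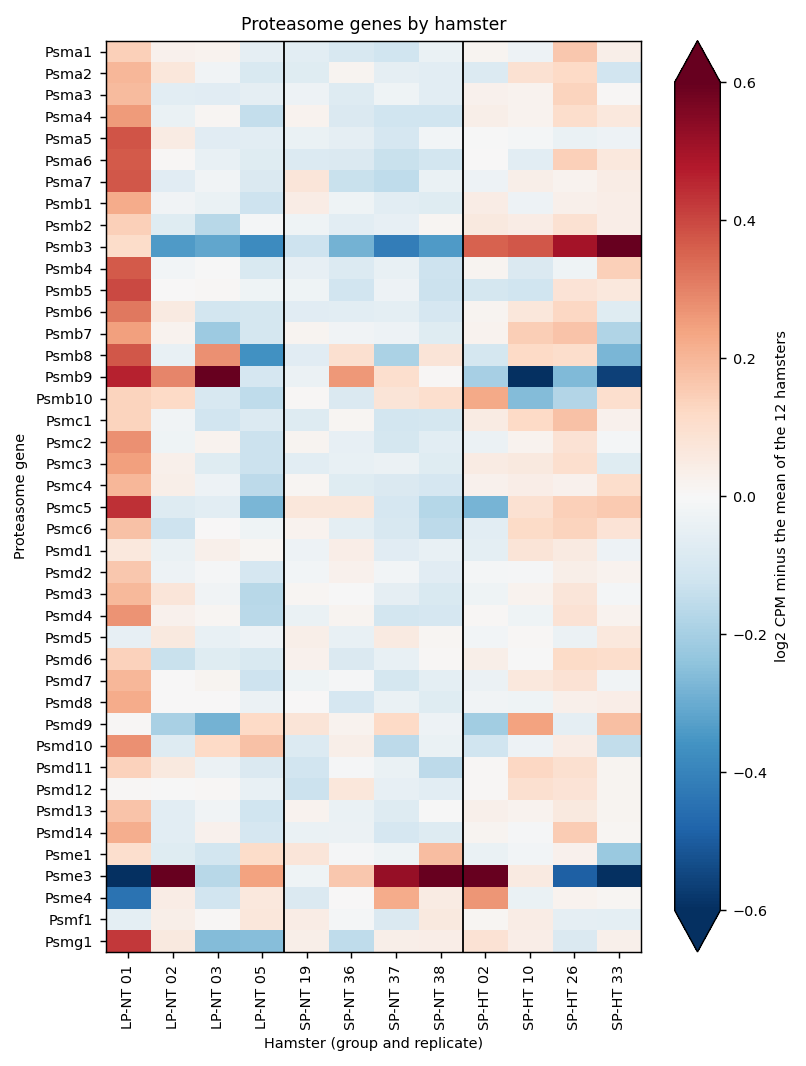
log2 CPM of each proteasome gene in each hamster, minus the mean of the 12 hamsters (colour, saturated at 0.6; Psme2, with 0 to 3 counts, is left out). LP-NT replicate 01 is red across most core and cap genes, Psmb3 is red in the 4 hamsters labelled SP-HT, and Psmb9 is blue in the same 4.

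Groups that did not overlap were rare. Psma6, an alpha subunit, was the only proteasome gene whose CPM in all 4 SP-NT hamsters lay below all 4 LP-NT hamsters, beside 1.72% of GeneIDs lower in this way. None lay above. In TPM that gene was Psmb5 and no longer Psma6, beside 1.32% of GeneIDs. The immunoproteasome genes had log2(FC) values of -0.30 for Psmb9, -0.10 for Psmb8, 0.02 for Psmb10 and 0.05 for Psme1, each with an interval that held 0. In LP-NT, with replicate 01 first, Psmb9 had 2.49, 2.21, 3.05 and 1.69 CPM and Psmb8 had 7.06, 5.3, 6.6 and 4.25 CPM, which is a wider spread than in SP-NT for both genes. Psmb10 had 32.6, 32.2, 27.8 and 26.7 CPM and Psme1 had 26.8, 23.7, 23.1 and 26.9 CPM in LP-NT. Psme4 went the other way from most core and cap genes in LP-NT replicate 01, with 58.1 CPM there and 81.2, 72.9 and 82.5 CPM in the other 3 hamsters.

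The precision sets what the comparison could show. The 95% intervals had a median half-width of 0.18 on the log2 scale. For 21 of 43 genes the whole interval lay within 0.25 on the log2 scale in either direction, where 0.25 upward is a rise of 18.9%.

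Torpor was compared by the samples labelled SP-HT against those labelled SP-NT, both in short photoperiod, a comparison meant to isolate the torpid state. By the labels, SP-HT also held more males than SP-NT. Psmb3 was higher in SP-HT and was the only proteasome gene past the threshold, in a comparison that called 2.40% of 16195 GeneIDs, 0.506% as higher. The remaining 13 core genes and 18 of 20 cap genes had small log2(FC) values above 0, none past the threshold. The 4 immunoproteasome genes other than Psme2 had log2(FC) values below 0, none past the threshold, with Psmb9 the largest in size. The median was 0.09 over the core genes, 0.07 over the cap genes and -0.08 over those 4, beside -0.00 over all GeneIDs.

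Of the 42 genes other than Psme2, 34 had a log2(FC) above 0, beside 49.4% of all GeneIDs, and the share of all GeneIDs below 0 was 50.6%. At an unadjusted p under 0.05 there were 8 proteasome genes higher, beside 7.81% of GeneIDs, and 1 lower, beside 10.6% of GeneIDs. The intervals were narrower than for photoperiod, with a median half-width of 0.12. For 31 of 43 genes the whole interval lay within 0.25 on the log2 scale in either direction, 12 of them core genes and 16 cap genes, and none of them immunoproteasome genes.

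**Figure D3:**
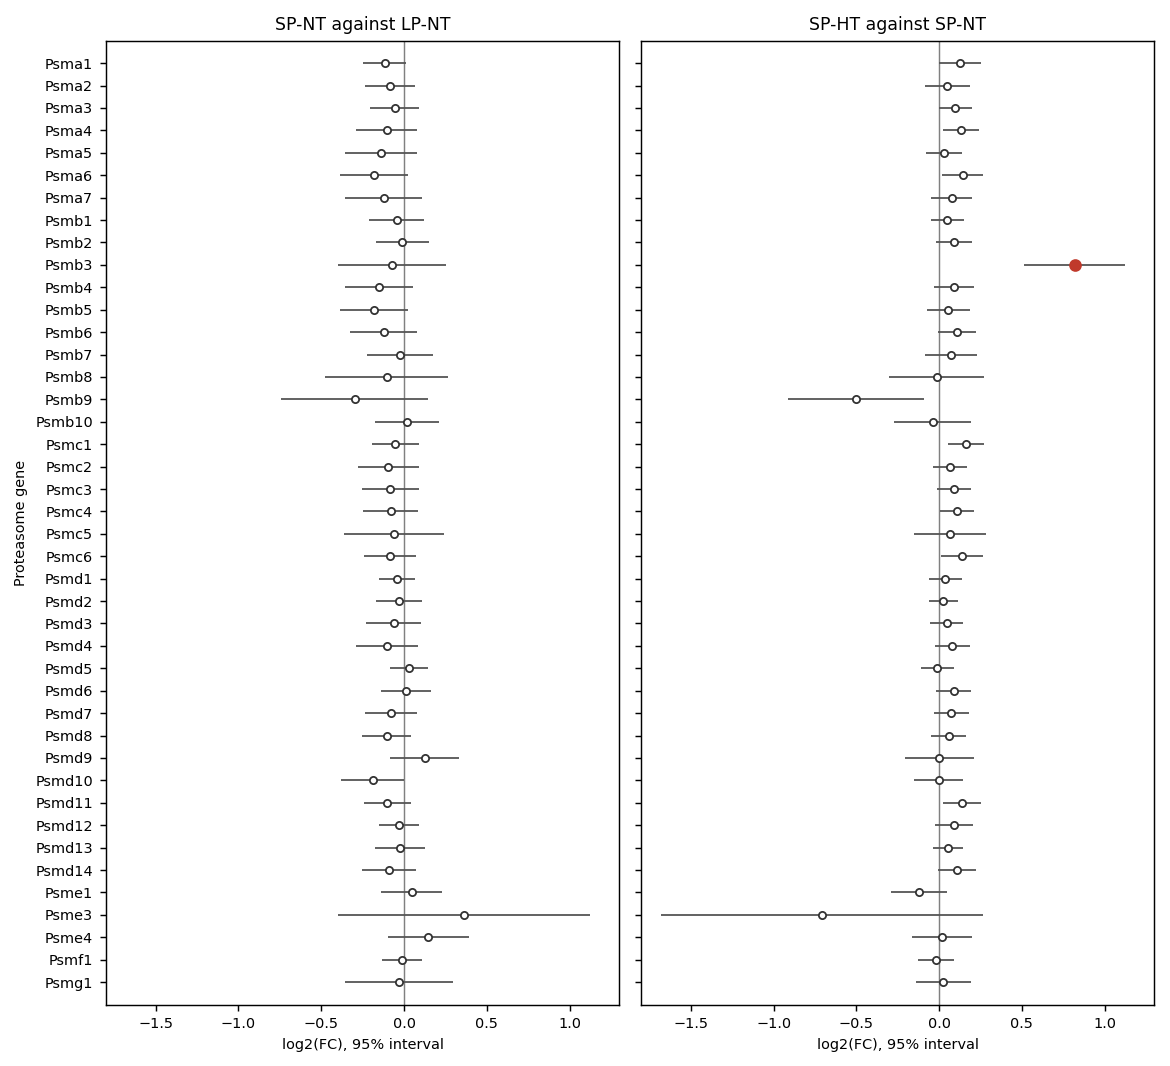
log2(FC) with 95% interval (edgeR) of each proteasome gene except Psme2 for SP-NT against LP-NT (left) and for the samples labelled SP-HT against SP-NT (right), from 4 hamsters a group; the filled red point is past the threshold. Psmb3 stands alone at 0.82 on the right, most core and cap intervals are narrow, and that of Psme3, with few counts, is wide.

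Psmb3 had 7.44, 7.52, 8.22 and 10.5 CPM in the 4 SP-HT hamsters. It had 5.34, 4.79, 4.36 and 4.60 CPM in SP-NT, and 6.29, 4.60, 4.69 and 4.48 CPM in LP-NT. Every SP-HT hamster lay above every hamster of the other groups, and SP-NT and LP-NT overlapped. The log2(FC) was 0.82 (standard error 0.139, edgeR padj = 0.0157), a 1.76-fold higher level in the SP-HT group than in the SP-NT group.

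The transcripts behind the Psmb3 value differed with the group too. The effective length, which is the abundance-weighted length of a gene's transcripts open to fragments, was 1853 to 2066 bases in SP-HT, 1567 to 1695 bases in SP-NT and 1605 to 1706 bases in LP-NT. Effective lengths that were higher in SP-HT without overlap were found for 2.40% of GeneIDs, and Psmb3 was the 1 proteasome gene among them. With the effective lengths as an offset in edgeR, the log2(FC) of Psmb3 was 0.56 (edgeR padj = 0.123) and no proteasome gene passed, where 0.908% of GeneIDs did. With the same lengths in DESeq2, which called 4.69% of GeneIDs, it was 0.57 (DESeq2 padj = 0.0343). Without SP-NT replicate 38 the call was lost (log2(FC) 0.80, edgeR padj = 0.0548), and without SP-NT replicate 19 it held (log2(FC) 0.88, edgeR padj = 0.0392). In TPM, Psmb3 had 9.74 to 15.2 in SP-HT, 7.29 to 8.92 in SP-NT and 7.46 to 9.84 in LP-NT, where replicate 01 overlapped SP-HT.

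The alpha ring, which gates entry to the barrel, had 4 of its 7 genes higher in SP-HT without overlap in CPM, namely Psma1, Psma3, Psma4 and Psma6, beside 4.74% of GeneIDs. In TPM only Psma3 of the 7 was separate in this way, beside 2.39% of GeneIDs. Psma4 had 71.8, 71.05, 75.5 and 73.2 CPM in SP-HT and 71.00, 65.9, 64.5 and 64.5 CPM in SP-NT, with a log2(FC) of 0.13 (edgeR padj = 0.196). The highest SP-NT hamster thus nearly met the lowest SP-HT hamster. Psma3 had 110, 110, 119 and 109 CPM in SP-HT and 106, 103, 107 and 104 CPM in SP-NT, with a log2(FC) of 0.10 (edgeR padj = 0.281). Psma5 had 47.6, 47.3, 46.4 and 46.8 CPM in SP-HT and 46.5, 46.0, 44.5 and 47.2 CPM in SP-NT. These overlapped, and its log2(FC) was the smallest of the core, 0.03, with an interval of -0.08 to 0.14.

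The 3 constitutive catalytic subunits had intervals that all lay within 0.25 on the log2 scale. Their log2(FC) was 0.06 for Psmb5 (interval -0.08 to 0.19), 0.11 for Psmb6 (-0.01 to 0.22) and 0.07 for Psmb7 (-0.08 to 0.23), and all 3 overlapped between the groups. In SP-HT, Psmb5 had 83.1, 82.1, 94.5 and 93.2 CPM, Psmb6 had 65.8, 68.3, 71.0 and 62.1 CPM, and Psmb7 had 104, 114, 115 and 90.6 CPM. The hamsters with the higher values were not the same for Psmb5 as for Psmb6 and Psmb7, with replicate 33 among the higher 2 for Psmb5 and the lowest for the others. Of the structural beta subunits other than Psmb3, Psmb2 was higher without overlap, and Psmb1 and Psmb4 overlapped. Psmb2, the beta4 subunit, had 49.4, 48.9, 50.5 and 48.8 CPM in SP-HT and 46.6, 45.4, 45.9 and 47.8 CPM in SP-NT, with a log2(FC) of 0.09 (edgeR padj = 0.368). Psmb4, the beta7 subunit, had effective lengths that were lower in SP-HT without overlap, as did 4.98% of GeneIDs, and was the 1 proteasome gene among them.

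Among the cap genes, Psmc1, the ATPase Rpt2, had the largest log2(FC). It had 151, 159, 166 and 149 CPM in SP-HT, and 139, 147, 136 and 136 CPM in SP-NT. All 4 SP-HT hamsters lay above the 4 SP-NT hamsters, by a small margin. The log2(FC) was 0.16 (standard error 0.0487), which did not pass in edgeR (padj = 0.109) and passed in DESeq2 with its default settings (padj = 0.0324), which called 6.28% of GeneIDs.

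The other cap genes that did not overlap between the groups, all higher in SP-HT, were Psmc4, a further ATPase, Psmd11, the non-ATPase subunit Rpn6 that clamps the cap to the core, and Psmd14, the deubiquitinase Rpn11. Psmd11 had 85.5, 92.8, 91.2 and 86.2 CPM in SP-HT and 78.7, 85.0, 83.0 and 76.5 CPM in SP-NT, with a log2(FC) of 0.14 (edgeR padj = 0.192). Psmd1 and Psmd2, the scaffold subunits of the cap and its genes with the most counts, had log2(FC) values of 0.04 and 0.03. Psmd14 had 66.1, 65.2, 72.7 and 65.9 CPM in SP-HT and 63.6, 63.8, 61.0 and 61.9 CPM in SP-NT, with replicate 26 the highest, and a log2(FC) of 0.11 (edgeR padj = 0.300).

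The 3 chaperones of cap assembly had log2(FC) values close to 0. Psmd9, the chaperone p27, had 25.2, 34.3, 28 and 33.0 CPM in SP-HT and 30.7, 29.5, 31.6 and 28.5 CPM in SP-NT, so that the SP-HT hamsters lay on both sides of the SP-NT hamsters. Its log2(FC) was 0.00 (interval -0.21 to 0.21), the smallest of the cap. The log2(FC) was -0.01 for Psmd5 (interval -0.11 to 0.09) and -0.00 for Psmd10 (interval -0.15 to 0.15).

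Over core and cap together, 10 proteasome genes had CPM groups without overlap, higher in SP-HT, beside 4.74% of GeneIDs. In TPM there were 2, Psma3 and Psmb3, beside 2.39% of GeneIDs. The count of separated genes thus depended on the scale.

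**Figure D4:**
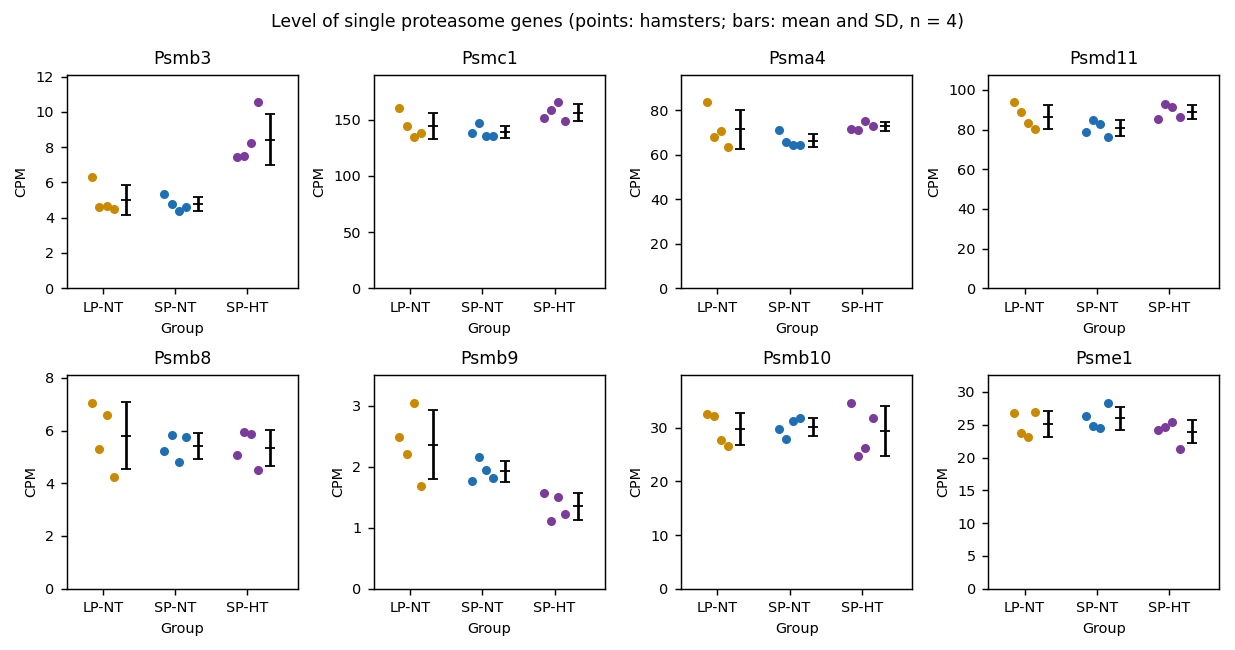
CPM (axes from 0) of 8 proteasome genes in each hamster, with the mean and SD of 4 hamsters at the right of each group. Psmb3 is higher and Psmb9 lower in the 4 hamsters labelled SP-HT than in SP-NT, Psmc1, Psma4 and Psmd11 are separated by small margins, and Psmb8, Psmb10 and Psme1 overlap.

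Among the inducible catalytic subunits, only Psmb9 had CPM groups without overlap, and differences between the subunits were not tested. Psmb9 had 1.58, 1.11, 1.5 and 1.23 CPM in SP-HT, and 1.77, 2.16, 1.94 and 1.82 CPM in SP-NT. All 4 SP-HT hamsters lay below the 4 SP-NT hamsters, which was the case for 7.39% of GeneIDs. Its log2(FC) was -0.50 (standard error 0.187, edgeR padj = 0.186), on 23 to 52 expected counts per hamster of these groups, and did not pass. Its share of the TPM of Psmb6 was 1.73%, 0.974%, 1.59% and 1.5% in SP-HT, against 2.00%, 2.61%, 2.05% and 2.20% in SP-NT. The other pairs did not show a lower share in SP-HT. Psmb8 had a mean of 5.20% of the TPM of Psmb5 in SP-HT and 5.18% in SP-NT. Psmb10 had a mean of 19.5% of that of Psmb7 in SP-HT (11.3% to 25.6%) and 16.3% in SP-NT (12.7% to 21.3%).

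Psmb8 had 5.08, 5.93, 5.87 and 4.51 CPM in SP-HT and 5.21, 5.83, 4.79 and 5.77 CPM in SP-NT, with a log2(FC) of -0.02 and an interval of -0.30 to 0.27. Psmb10 had 34.7, 24.8, 26.3 and 31.8 CPM in SP-HT and 29.8, 27.9, 31.3 and 31.8 CPM in SP-NT, with a log2(FC) of -0.04 (interval -0.27 to 0.19). The groups overlapped for both genes, with SP-HT on both sides of SP-NT for Psmb10. With effective lengths as an offset, the sign turned to 0.05 for Psmb8 and 0.29 for Psmb10. The effective length of Psmb10 was 2649, 2645, 4140 and 2901 bases in SP-HT and 3173 to 4291 bases in SP-NT, and its part in the result was not tested. Psme1 had 24.3, 24.6, 25.4 and 21.4 CPM in SP-HT and 26.3, 24.9, 24.5 and 28.4 CPM in SP-NT, with a log2(FC) of -0.12 (edgeR padj = 0.423). Its TPM was lower in SP-HT without overlap, as were those of Psmb9 and of 8.10% of GeneIDs, and its CPM overlapped.

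Of the other regulators, Psme4, the nuclear activator PA200, had 94.7, 76.8, 80.1 and 79.5 CPM in SP-HT and 74.3, 79.0, 92.0 and 81.5 CPM in SP-NT, with a log2(FC) of 0.02 (interval -0.16 to 0.20). In SP-HT, replicate 02 was the highest of both groups, and the others lay among those of SP-NT. Psmf1, the regulator PI31, had 81.9, 83.6, 78.1 and 78.0 CPM in SP-HT and 83.7, 80.6, 76.5 and 84.4 CPM in SP-NT, with a log2(FC) of -0.02 (interval -0.13 to 0.09). Psmg1, the chaperone PAC1 of alpha ring assembly, had 0.03 (interval -0.14 to 0.19). Psme3, the PA28gamma activator of the nucleus, had 72, 44, 31 and 9 expected counts in SP-HT and 49, 55, 68 and 113 in SP-NT. The groups overlapped, and its log2(FC) of -0.71 had an interval from -1.68 to 0.26. How much of the Psme3 mRNA its 3 assembled transcripts hold was not tested.

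Summed over genes, the core differed little. The 14 core genes summed to 1015, 1020, 1077 and 1026 CPM in SP-HT, to 999, 965, 964 and 959 CPM in SP-NT and to 1232, 1007, 975 and 956 CPM in LP-NT. The SP-HT sums lay above the SP-NT sums without overlap, and LP-NT, with replicate 01 first, spanned both. In TPM the core sums were 2461 to 2577 in SP-HT and 2407 to 2473 in SP-NT, which overlapped. The cap summed to 1915 to 2045 CPM in SP-HT and 1842 to 1926 CPM in SP-NT. The immunoproteasome set summed to 56.5 to 65.7 CPM in SP-HT and 60.9 to 67.9 CPM in SP-NT. Both of these pairs overlapped.

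**Figure D5:**
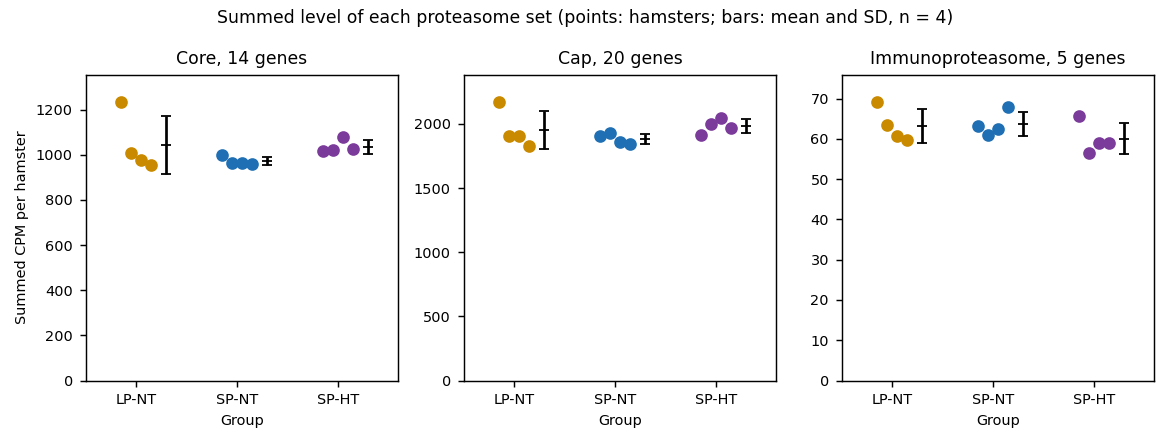
Summed CPM (axes from 0) of the core, cap and immunoproteasome genes in each hamster, with the mean and SD of 4 hamsters at the right of each group. Core sums of the hamsters labelled SP-HT (1015 to 1077) lie above those of SP-NT (959 to 999), and LP-NT replicate 01 is the highest hamster of each panel.

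The samples labelled SP-HT were also set against LP-NT, a comparison that differs in photoperiod and torpor and shares its hamsters with both comparisons above. No proteasome gene passed, where 1.37% of 16157 GeneIDs were called. The log2(FC) of Psmb3 was 0.76 (edgeR padj = 0.0524) and that of Psmb9 was -0.79 (edgeR padj = 0.127). At an unadjusted p under 0.05 these were the 2 proteasome genes, 1 higher (6.26% of GeneIDs) and 1 lower (8.85%). In CPM both were separated between the groups, Psmb3 as 1 of the genes higher (3.81% of GeneIDs) and Psmb9 among the genes lower (6.83%), together with Psme2 on at most 3 counts a hamster. The median log2(FC) over the 42 genes other than Psme2 was 0.01, and 0.07 without LP-NT replicate 01, where Psmb3 passed (log2(FC) 0.88, edgeR padj = 0.0330) as 1 of 1.24% of GeneIDs.

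Side by side for the photoperiod comparison, the torpor comparison and this one, the log2(FC) of Psmb3 was -0.07, 0.82 and 0.76. That of Psmb9 was -0.30, -0.50 and -0.79. That of Psmc1 was -0.05, 0.16 and 0.12. The values of the 3 comparisons share hamsters pairwise and are not independent.

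Within groups the core and cap genes varied together, less so without 1 hamster. The median Pearson correlation between pairs of genes, on deviations of log2 CPM from the group means over 12 hamsters, was 0.76 over the 91 core pairs and 0.64 over the 190 cap pairs. Over the 33 proteasome genes with a mean of at least 1000 counts it was 0.70, beside 0.02 for all GeneIDs of that depth. Without LP-NT replicate 01 it was 0.23 over the core pairs, 0.32 over the cap pairs and 0.24 over those 33 genes, beside 0.02. These are descriptions: the pairs share libraries and depth, and genes are not independent replicates.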

How the data were processed

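The deposited files hold, per hamster and mouse GeneID, RSEM expected counts, TPM and an effective length in bases, all made by the authors. By the study's methods and the submitters' processing notes, reads were trimmed with Trim Galore 0.6.6 and checked with FastQC 0.11.9, all libraries were pooled into 1 de novo assembly, transcripts were assigned to mouse proteins (GRCm39), and each library was mapped back with Bowtie 1.3.0 and quantified with RSEM 1.3.1. A GeneID joins all transcripts with the same mouse hit, so isoforms and related genes are not separated and partly assembled genes have few counts. The expected counts deposited by the authors are not normalized, and their TPM values are corrected for length and depth; the FPKM column was not used.

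Expected counts were rounded, GeneIDs whose counts added up to 10 or more in the 8 libraries compared entered the test, and groups were compared with edgeR 4.0.16 (R 4.3.3; TMM, quasi-likelihood test, Benjamini-Hochberg adjustment over all GeneIDs, threshold 0.05, no covariates). log2(FC) is the first-named minus the second-named group. CPM use TMM factors over 12 samples. Standard errors are the log2(FC) over the root of the F statistic, and 95% intervals use the test's degrees of freedom. Alternatives were DESeq2 1.42.0, limma 3.58.1 (voom), other scaling and filters, and all 12 samples in 1 fit. Further ones were sex as covariate, effective lengths as an offset and each hamster left out, plus DESeq2 with effective lengths, chosen after seeing the data. The covariate was the labelled sex, also for SP-NT replicate 19.

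The members and lists were chosen with earlier results of these data known. Values in every sample were to be given for members past the threshold, the catalytic subunits, the activators, and the largest and smallest torpor change of the core, cap and other regulators. For lack of a gene table here, 12 lists of ubiquitin, assembly and cell type marker genes were not analysed, so the tissue label was not checked against marker genes. The Rbm3-ps record was matched by the size and padj of its change between SP-HT and SP-NT, without its sign, and by 1 record only.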

Additional observations from a re-analysis of the deposited data

Results flagged for a closer look

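In groups of 4 hamsters, the highest or lowest value was called separate where its gap to the nearest other value took up more of the group's range than Dixon's 95% critical value for 4 samples. Of 138 groups examined, over the proteasome genes and the summed sets, 13 (9.42%) had such a value, where chance gives about 1 in 20 for independent groups. These groups share libraries, and their genes vary together, so an excess over chance was not tested. In 6 of them LP-NT replicate 01 was the highest hamster, with 124 CPM for Psma3, 82.4 CPM for Psma6, 110 CPM for Psma7, 6.29 CPM for Psmb3, 118 CPM for Psmb5 and 69.5 CPM for Psmd8. SP-HT replicate 26 was separate as the highest for Psma3 (119 CPM) and Psmd14 (72.7 CPM). LP-NT replicate 02 was the highest for Psmd5 (88.8 CPM).

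Lowest values stood apart for Psmb1 in SP-HT replicate 10 (82.2 CPM), for Psmc5 in SP-HT replicate 02 (44.8 CPM) and for Psmg1 in SP-NT replicate 36 (16.5 CPM). The summed CPM of the core genes was separate as the highest in SP-NT replicate 19 (999 CPM), the hamster whose counts did not match its labelled sex.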

How the results depend on the processing

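The medians over the proteasome genes (Psme2 included) and over core, cap and immunoproteasome moved by less than the pooled within-group SD under all 10 alternatives and without any 1 hamster. That SD is widened by LP-NT replicate 01: without it the photoperiod median of the core went from -0.11 to -0.02, a move above the SD of the core in SP-NT (0.0205 on the log2 scale) and under that in LP-NT (0.153). No proteasome gene passed for photoperiod under any of them. The count of GeneIDs called for photoperiod was 33 with DESeq2 (with and without independent filtering) and 32 with DESeq2 and effective lengths. For torpor it was 1017 and 979 with DESeq2, 759 with DESeq2 and effective lengths, 242 with sex as covariate, 147 with the effective length offset, and 104 to 318 without 1 hamster. Proteasome genes called for torpor were 2 with DESeq2 in both forms (Psmb3 and Psmc1), 0 with the length offset, and 0 to 1 without 1 hamster.

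For SP-HT against LP-NT, GeneIDs called were 706 and 672 with DESeq2, 623 with DESeq2 and effective lengths, 416 with voom, 612 with all samples in 1 fit, 103 with the length offset, and 55 to 200 without 1 hamster. Proteasome genes called were 1 with DESeq2, voom or filterByExpr, 2 with all samples in 1 fit (Psmb3 and Psmb9), and 0 to 1 without 1 hamster.

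Signs turned for log2(FC) values that were near 0 in the edgeR test without offset. For photoperiod these were Psmb3 (0.021) and Psmb7 (0.046) in voom. For torpor they were Psmd9 (-0.031) with sex as covariate, and Psmb8 (0.051), Psmb10 (0.29) and Psmf1 (0.021) with the length offset. With DESeq2 and effective lengths, Psmb8, Psmb10 and Psmf1 had 0.058, 0.30 and 0.027. Psmb10 thus moved well away from 0 where effective lengths were used. The cause was not tested.

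Without 1 hamster at a time, log2(FC) values near 0 also crossed it. For photoperiod the ranges were -0.13 to 0.055 for Psmb3, -0.089 to 0.068 for Psmb7, -0.23 to 0.0048 for Psmb8, -0.083 to 0.00087 for Psmc1, -0.032 to 0.063 for Psmb10 and -0.035 to 0.019 for Psmf1. For torpor they were -0.067 to 0.059 for Psmb8, -0.051 to 0.082 for Psme4, -0.13 to 0.035 for Psmb10, -0.066 to 0.081 for Psmd9 and -0.044 to 0.0030 for Psmf1.

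No paired analysis was possible because the groups share at most 1 replicate number, and it names different hamsters. With 4 hamsters a group, the median changes of core and cap were smaller in size than the median half-widths of their intervals. Those half-widths were 0.20 and 0.16 for photoperiod, and 0.12 and 0.11 for torpor. Genes with few counts (Psmb9, Psme3, Psme2) could not be measured closely.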
